A study of Danio rerio with 61 samples.

Results

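The lysosomal proteases named cathepsins and the genes of the vacuolar ATPase (V-ATPase) were followed in zebrafish ventricles after cryo-injury, in which the tip of the ventricle is frozen with a cold copper probe. The members are all genes with a normalized value in the series whose symbol begins with cts and a letter, or with atp6v or atp6ap. This gave 41 of 16890 genes, namely 16 cathepsins and 25 V-ATPase genes, and the 2 groups were kept apart. The rule reads symbols, and it leaves out V-ATPase genes with other symbols such as tcirg1a, tcirg1b and atpv0e2. A member also had to reach 1 CPM (the count of a gene scaled to the total of its library) in at least 1 library. A scarce gene can therefore have entered through the stage in which it is high. Another 6 gene IDs that carry such a symbol, atp6v1c2, atp6v0a2a and 4 IDs named ctslb, stayed below 1 CPM in every library.

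Bulk RNA-seq was done on single ventricles of adult fish that were uninjured or were taken on day 1 or day 7 after cryo-injury (1 dpci, 7 dpci). They came from 7 wild-type strains, named AB, TL (Tupfel long fin), TU (Tübingen), WIK (Wild India Kolkata), SAT (Sanger AB Tübingen), NA (Nadia) and KCL (Kings College London), and carried no transgene or drug that the labels mention. With 3 ventricles for each group, and 2 where SAT or TU was taken at 1 dpci, this gives 21 uninjured, 19 1 dpci and 21 7 dpci libraries. KCL is the strain kept at the authors' facility, and the others were brought in. Each library comes from a whole ventricle, so that wound, border zone and remote muscle are mixed.

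Cathepsins are proteases that digest protein in the acid interior of the lysosome, and some are also released by leukocytes and cut extracellular matrix. The V-ATPase is the proton pump that acidifies lysosomes and endosomes. Its soluble V1 sector hydrolyses ATP and its membrane-bound V0 sector carries protons, and several subunits are encoded by more than one gene, whose products are used in different cell types. Macrophages and neutrophils are rich in both kinds of protein.

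The libraries held 2943684 to 5538019 counts (median 3843819), of which a mitochondrial rRNA took 31.2% to 69.3%. The 16 cathepsins together received 309 to 7379 counts per library (median 984) and the 25 V-ATPase genes 682 to 6941 (median 1443). Averaged over the libraries, 11 cathepsins and 21 V-ATPase genes reached 1 CPM, and the remaining 9 members rest on a few counts. The time label goes against the title in 6 libraries, and the title was used. The 6 libraries titled uninjured NA or TU resembled the other of these 2 strains at 7 dpci most, whereas all 44 libraries of the other 5 strains resembled their own. Single-strain and interaction results are therefore given for AB, KCL, SAT, TL and WIK, and the stage comparisons weight the 7 strains equally. The presence of heart muscle was checked by 12 cardiomyocyte gene IDs, which summed to at least 15645 CPM in every library. They were not chosen to tell ventricle from atrium, so the ventricle label itself was not checked.

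At 1 dpci most members of both groups were higher than in uninjured ventricles. With edgeR's quasi-likelihood test and Benjamini-Hochberg adjustment over all 16890 genes, 12 of 16 cathepsins passed an adjusted p of 0.05, 11 higher and 1 lower, beside 28.3% of all genes (16.2% higher, 12.1% lower). Of the 25 V-ATPase genes 19 passed, 17 higher and 2 lower. The median log2 fold change was 1.18 for the cathepsins and 0.74 for the V-ATPase genes, against 0.07 for all genes tested. None of the 41 members had all 1 dpci libraries above all uninjured libraries, which 0.13% of all genes did. The summed cathepsin level ran from 254.1 to 1332 CPM at 1 dpci (median 501.2) and from 106.0 to 309.6 CPM in uninjured ventricles (median 185.5).

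**Figure D1:**
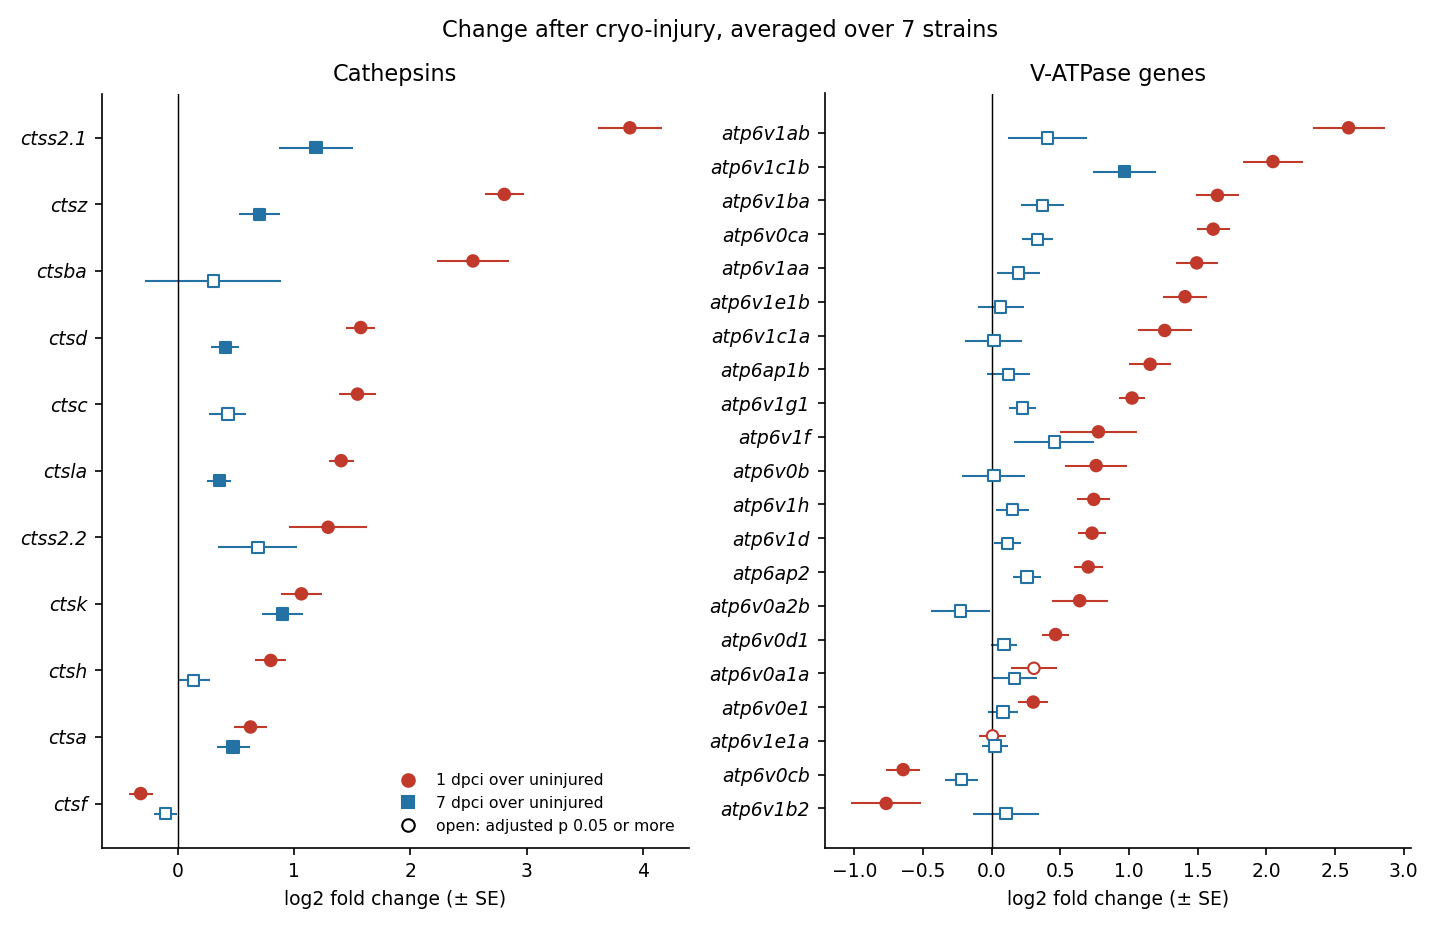
Log2 fold change (x axis, ± SE) of the 11 cathepsins (left) and 21 V-ATPase genes (right) that averaged at least 1 CPM, for 1 dpci over uninjured (red circles) and 7 dpci over uninjured (blue squares), averaged over 7 strains, with open symbols for an adjusted p of 0.05 or more. At 1 dpci ctsf, atp6v0cb and atp6v1b2 lie to the left of 0, and atp6v1e1a lies at 0.

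The largest changes among the cathepsins were those of ctss2.1, ctsl.1, ctsz and ctsba, which are cysteine proteases like most of the group. ctss2.1, a gene related to cathepsin S of antigen-presenting cells, had a lowest, median and highest level of 0, 2.34 and 10.53 CPM in uninjured ventricles, of 4.81, 33.6 and 94.98 CPM at 1 dpci and of 0.593, 4.73 and 28.9 CPM at 7 dpci. Its median library at 1 dpci thus stood above every uninjured and every 7 dpci library, although single libraries overlapped. It was higher at 1 dpci with a log2 fold change of 3.89 ± 0.28 (SE, adjusted p = 9.4e-17 by edgeR), and it passed in each of the 5 strains taken one by one. ctsz, whose product trims the carboxyl end of peptides, had 2.204, 4.84 and 15.2 CPM in uninjured ventricles, 9.61, 34.6 and 114.5 CPM at 1 dpci and 3.89, 9.91 and 17.8 CPM at 7 dpci. It passed in each of the 5 strains as well, with a fold change of 2.81 ± 0.17 over the strains (log2, adjusted p = 1.76e-19 by edgeR). The lowest KCL and the lowest TU ventricle at 1 dpci reached down into the uninjured range, and the other 17 did not.

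ctsba, a cathepsin B gene, had 0, 23.5 and 74.4 CPM in uninjured ventricles, 0.742, 121.9 and 626.2 CPM at 1 dpci and 0, 31.5 and 116.4 CPM at 7 dpci. The lowest values of each stage are those of TL, which are described with the strains. Its log2 fold change at 1 dpci was 2.54 ± 0.31 (adjusted p = 3.11e-09 by edgeR). ctsl.1, a cathepsin L gene, was nearly absent from uninjured ventricles, where 18 of 21 libraries held no count, and it stayed low at 1 dpci, where 4 of 19 libraries held none and the highest level was 5.89 CPM. It passed the test (log2 fold change 3.55 ± 0.73, adjusted p = 0.000207 by edgeR), but this rests on few counts and the call was lost without TU replicate 48 or without WIK replicate 57 at 1 dpci. Its highest level was 0.965 CPM in uninjured ventricles and 0.991 CPM at 7 dpci, so it may have entered the members through its 1 dpci level. It is counted among the cathepsins that passed, but its calls against 1 dpci therefore lend no support of their own.

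The remaining cathepsins that passed changed less. ctsla, the main cathepsin L gene here, had 33.2, 49.2 and 77.9 CPM in uninjured ventricles, 67.9, 129.7 and 212.5 CPM at 1 dpci and 36.2, 67.6 and 109.0 CPM at 7 dpci. The 1 dpci and uninjured ranges overlapped only at their ends (log2 fold change 1.40 ± 0.11, adjusted p = 1.35e-15). The aspartic protease ctsd had 17.5, 25.5 and 55.3 CPM in uninjured ventricles, 25.9, 87.0 and 179.1 CPM at 1 dpci and 23.4, 35.4 and 65.7 CPM at 7 dpci, with a log2 fold change of 1.57 ± 0.12 at 1 dpci (adjusted p = 2.75e-15). ctsc, a dipeptidyl peptidase that activates the serine proteases of neutrophil granules, was higher by 1.54 ± 0.16, and the matrix-degrading ctsk by 1.06 ± 0.17. ctss2.2 (1.29 ± 0.33), ctsh (0.80 ± 0.14) and the carboxypeptidase ctsa (0.62 ± 0.14) passed as well (log2 fold changes, adjusted p from 4.09e-06 to 0.00189 by edgeR). The call of ctss2.2 was lost without TU replicate 48.

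ctsf was the cathepsin that moved the other way. It had 13.6, 25.7 and 52.4 CPM in uninjured ventricles, 9.21, 20.8 and 44.1 CPM at 1 dpci and 15.9, 21.8 and 52.7 CPM at 7 dpci. The ranges overlapped almost fully, and the log2 fold change was -0.32 ± 0.10 (adjusted p = 0.0146 by edgeR). The other 4 cathepsins, ctsbb, ctsll, ctso and ctss1, did not pass and averaged below 1 CPM at every stage. ctsbb and ctss1 held no count in whole groups of strain and stage, so the test could not decide on them.

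**Figure D2:**
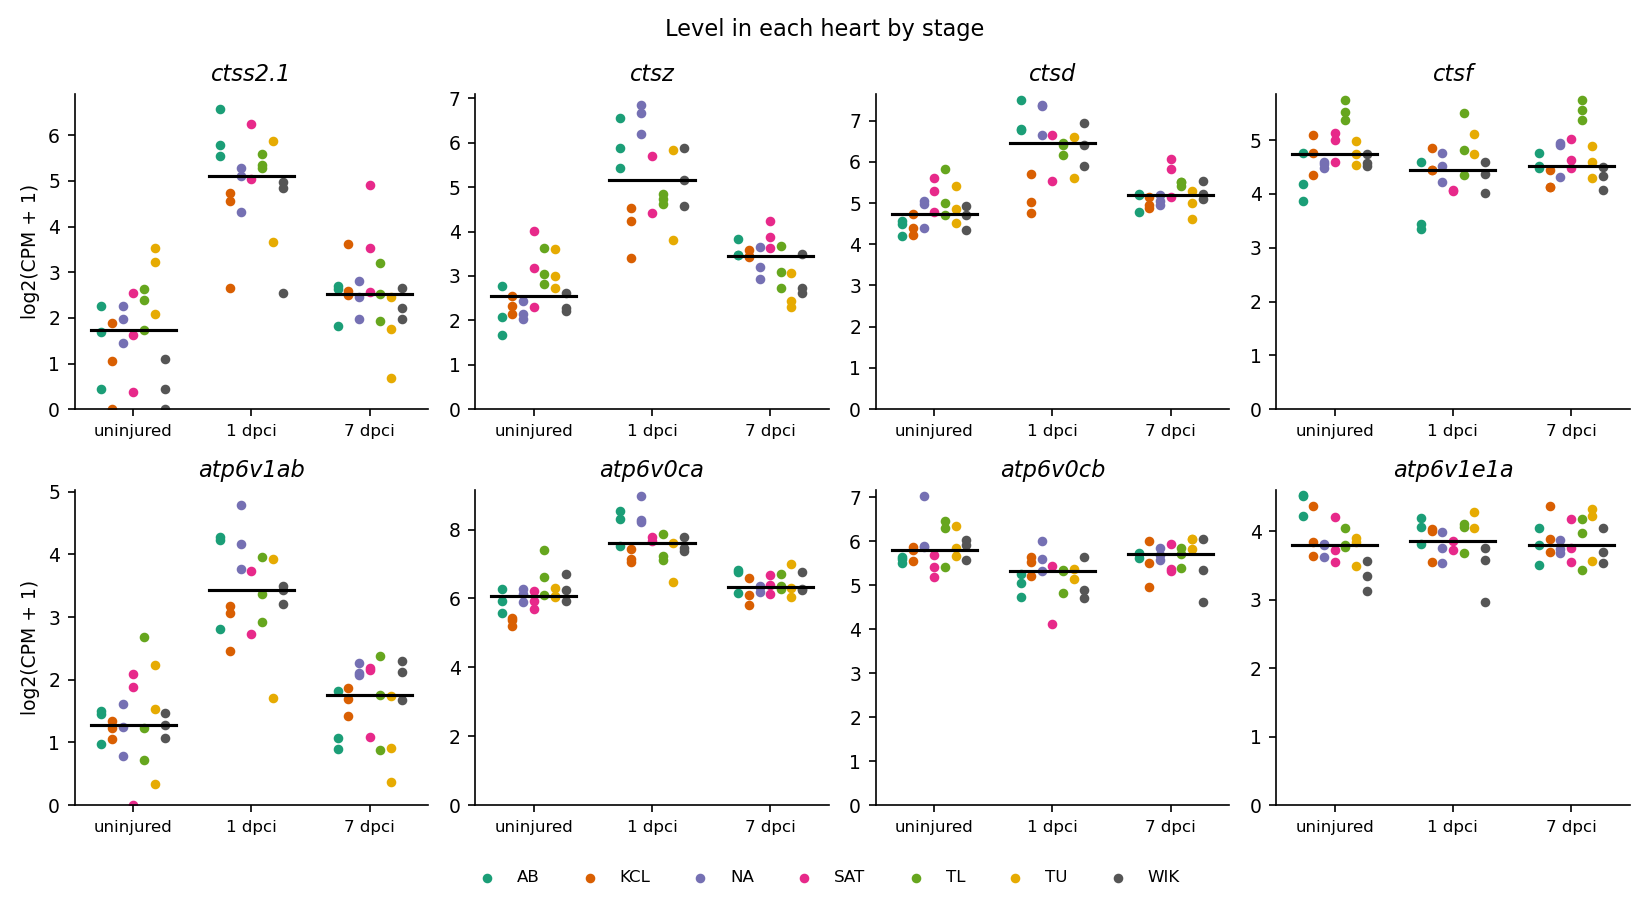
Level of 4 cathepsins (top) and 4 V-ATPase genes (bottom) in each of the 61 ventricles, as log2(CPM + 1) on the y axis, by stage on the x axis, with 1 colour per strain and a black line at the median. ctss2.1, ctsz, ctsd, atp6v1ab and atp6v0ca stand highest at 1 dpci, atp6v0cb stands lowest there, and atp6v1e1a is level.

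In the V1 sector of the V-ATPase, which turns ATP over, genes for every subunit from A to H passed at 1 dpci. atp6v1ab, 1 of 2 genes for the catalytic A subunit, had 0, 1.44 and 5.44 CPM in uninjured ventricles, 2.27, 9.79 and 26.8 CPM at 1 dpci and 0.299, 2.36 and 4.22 CPM at 7 dpci. It was low before injury and had the largest change of the group (log2 fold change 2.60 ± 0.26, adjusted p = 1.13e-11 by edgeR). Its partner atp6v1aa, which was the more abundant, had 4.04, 7.06 and 19.8 CPM in uninjured ventricles, 6.62, 19.9 and 39.8 CPM at 1 dpci and 4.28, 8.40 and 15.3 CPM at 7 dpci, and changed by 1.49 ± 0.15 (adjusted p = 1.32e-11). The regulatory C subunit gene atp6v1c1b had 0, 1.34 and 3.09 CPM, then 2.69, 5.86 and 13.8 CPM, then 1.40, 2.65 and 5.87 CPM at the 3 stages from uninjured to 7 dpci (log2 fold change at 1 dpci 2.05 ± 0.22, adjusted p = 6.42e-11). Only the lowest 1 dpci libraries of this gene fell among the uninjured ones.

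The B subunit, which binds nucleotide without being catalytic, was encoded by genes that moved in opposite directions. atp6v1ba had 8.06, 13.96 and 30.9 CPM in uninjured ventricles, 10.8, 38.4 and 150.9 CPM at 1 dpci and 7.48, 17.7 and 33.2 CPM at 7 dpci, and was higher at 1 dpci by 1.64 ± 0.16 on the log2 scale (adjusted p = 2.11e-12 by edgeR). atp6v1b2 had 0.364, 2.09 and 5.40 CPM in uninjured ventricles, 0, 1.32 and 4.55 CPM at 1 dpci and 0.279, 2.23 and 6.41 CPM at 7 dpci, and was lower at 1 dpci by -0.77 ± 0.25 (adjusted p = 0.0173). Its largest change within a strain was that of WIK, given with the strains, and the call was lost with limma on the back-transformed deposited values. Of the E subunit genes, atp6v1e1b was higher at 1 dpci (1.41 ± 0.16, adjusted p = 6.24e-10), with medians of 9.20, 22.7 and 10.6 CPM at the 3 stages, while atp6v1e1a had medians of 13.01, 13.52 and 13.01 CPM and a log2 fold change of 0.01 ± 0.10. The remaining V1 genes atp6v1c1a (1.26), atp6v1g1 (1.02), atp6v1f (0.78), atp6v1h (0.74) and atp6v1d (0.73) were higher, with adjusted p between 1.93e-12 and 0.0324. The call of atp6v1f, at about 2 CPM, was lost in 11 of 61 fits that each left out 1 library.

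In the V0 sector, the proton-conducting ring is built mainly of c subunits, and its 2 genes also parted. atp6v0ca was the most abundant member at 1 dpci, with 35.6, 66.3 and 167.5 CPM in uninjured ventricles, 87.7, 195.8 and 501.5 CPM at 1 dpci and 54.6, 78.9 and 125.8 CPM at 7 dpci. It was higher at 1 dpci by 1.61 ± 0.12 (log2, adjusted p = 3.62e-16 by edgeR), and it passed in 4 of the 5 strains, TL being the exception. atp6v0cb had 35.4, 54.7 and 129.6 CPM in uninjured ventricles, 16.4, 38.8 and 63.7 CPM at 1 dpci and 23.5, 50.98 and 65.02 CPM at 7 dpci. It was lower at 1 dpci by -0.64 ± 0.12 over the strains (adjusted p = 3.71e-05), although it passed in none of the 5 taken one by one. The other V0 genes that were higher changed less, namely atp6v0b (0.76), atp6v0a2b (0.64), atp6v0d1 (0.47) and atp6v0e1 (0.30), with adjusted p between 0.000118 and 0.0324. atp6v0e1 did not pass under 5 of 8 other settings, and atp6v0a2b did not without TU replicate 54. Neither atp6v0a1a (0.31 ± 0.17, adjusted p = 0.178) nor atp6v0a1b, which averaged 0.163 CPM at 1 dpci and 0.402 CPM before injury, passed the test. For atp6v0a1b, without a count in whole groups of strain and stage, the test could not decide.

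Of the accessory proteins that help to assemble and target the pump, atp6ap1b was higher at 1 dpci by 1.15 ± 0.15 and atp6ap2, also known as the prorenin receptor, by 0.70 ± 0.10 (log2, adjusted p = 2.46e-08 and 2.66e-07 by edgeR). atp6ap1a, atp6ap1la and atp6ap1lb averaged below 1 CPM and did not pass. For atp6ap1la and atp6ap1lb, without a count in whole groups of strain and stage, the test could not decide.

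The shift between members of a pair was tested directly by the log2 ratio of their CPM within each ventricle (1 CPM added to each), with stage labels permuted within strains (two-sided permutation test, 100000 permutations, 7 pairs and 3 stage comparisons, adjusted over 21 tests). The 7 V-ATPase pairs are those with symbols ending in a and b. The ratio of atp6v0ca to atp6v0cb was 2.23 higher at 1 dpci than in uninjured ventricles (p = 1e-05, the smallest these permutations can give, adjusted p = 0.000105), with medians of 2.26 at 1 dpci and 0.30 in uninjured ventricles. A smaller part of this shift was still seen at 7 dpci, when the ratio was 0.54 higher than in uninjured ventricles (adjusted p = 0.00129). atp6v1e1a relative to atp6v1e1b changed by -1.22 (adjusted p = 0.000367), atp6ap1a relative to atp6ap1b by -0.99 (adjusted p = 0.00063), atp6v1aa relative to atp6v1ab by -0.69 (adjusted p = 0.00333) and atp6v0a1a relative to atp6v0a1b by 0.47 (adjusted p = 0.0166). At 1 dpci the ratios of atp6v1c1a to atp6v1c1b (adjusted p = 0.121) and of atp6ap1la to atp6ap1lb (adjusted p = 0.71) did not pass. At 7 dpci the ratio of atp6v1c1a to atp6v1c1b was -0.56 relative to uninjured ventricles, a value at the threshold (unadjusted p = 0.0263, adjusted p = 0.0502, or 0.0474 if the pairs described next are counted among the tests). The pairs atp6v1ba with atp6v1b2 and ctss2.1 with ctss2.2 were picked after their values were seen and are given as a description. Their median log2 ratios were 2.47, 4.14 and 2.73, and -0.33, 2.08 and -0.073, in uninjured, 1 dpci and 7 dpci ventricles. For a scarce gene the added 1 CPM holds its term nearly constant, so the ratio can shift when the partner alone changes level. This applies to atp6ap1a (means 0.495 CPM in uninjured ventricles and 0.511 CPM at 1 dpci), to atp6v0a1b (0.402 and 0.163 CPM) and to atp6ap1la. Their ratio shifts therefore do not show that the fold changes of the 2 genes differ.

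**Figure D3:**
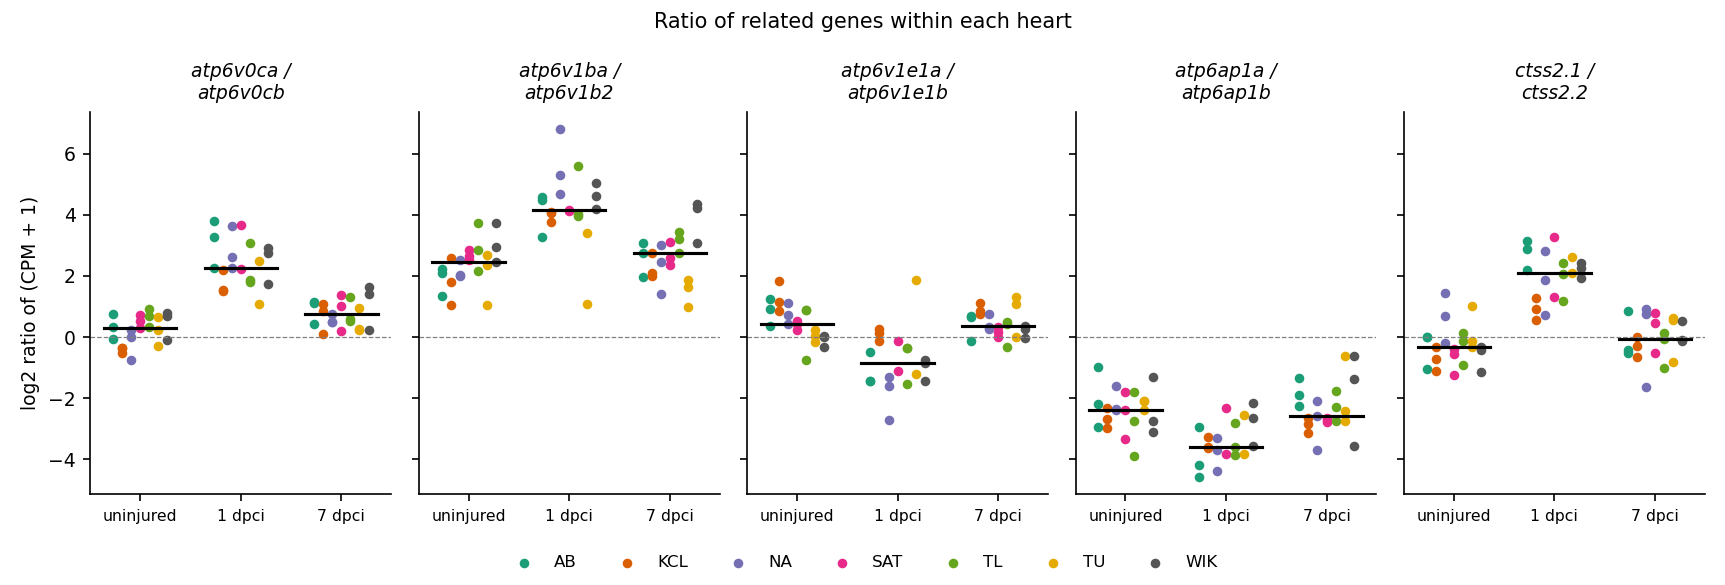
Log2 ratio of the levels of related genes within each ventricle (y axis, 1 CPM added to each gene), by stage on the x axis, for 5 pairs, with 1 colour per strain and a black line at the median. The medians of atp6v0ca over atp6v0cb are 0.30, 2.26 and 0.75 at the 3 stages, and those of atp6v1e1a over atp6v1e1b are 0.44, -0.86 and 0.36.

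ctss2.1, ctss2.2 and ctsk lie next to each other on chromosome 16 (GRCz11, 29509133 to 29513434, 29514473 to 29519977 and 29492749 to 29502787). The members with the largest V-ATPase changes do not neighbour each other, with atp6v1ab on chromosome 24 (21154120 to 21172122), atp6v1c1b on chromosome 19 (32947910 to 32966762), atp6v1ba on chromosome 17 (21372291 to 21418340) and atp6v0ca on chromosome 3 (16044680 to 16055463). How reads that match several genes were counted is not given in the sources used here, so reads of near copies such as ctss2.1 and ctss2.2 may have been shared or dropped.

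Markers of other cells moved at the same time. The 5 pan-leukocyte genes (cxcr4b, coro1a, fcer1gl, lcp1 and ptprc) were all higher at 1 dpci, and their sum ranged from 32.9 to 228.7 CPM at 1 dpci (median 117.8) and from 7.27 to 151.5 CPM in uninjured ventricles (median 25.8). lcp1 was at 0 in 1 of 19 libraries at 1 dpci and in 15 of 21 uninjured libraries, and the neutrophil gene mpx in 0 of 19 at 1 dpci and 16 of 21 uninjured ones. Of 13 macrophage genes 9 were higher and 2, cd74a and cd74b, lower. The sum of the 13 ranged from 53.5 to 614.2 CPM at 1 dpci (median 227.3) and from 57.96 to 563.2 CPM in uninjured ventricles (median 186.7). The 2 lower genes weigh most in the uninjured sum, so it hides the rise of the others. cd74a averaged 148.2 CPM before injury and 41.91 CPM at 1 dpci, and cd74b 21.59 and 11.77 CPM. A sum without these 2 was not taken. Of 9 neutrophil genes 6 were higher and none lower, and the sum ranged from 16.2 to 114.8 CPM at 1 dpci (median 45.5) and from 5.14 to 73.9 CPM before injury (median 20.4). Of 12 cardiomyocyte gene IDs 9 were lower and none higher, and their sum ranged from 15645 to 28712 CPM at 1 dpci (median 22147) and from 26385 to 40780 CPM in uninjured ventricles (median 34855). No erythroid gene passed. The part of these shifts in the cathepsin and V-ATPase results was not tested, and in whole ventricles more cells of a type and more RNA per cell cannot be told apart.

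**Figure D4:**
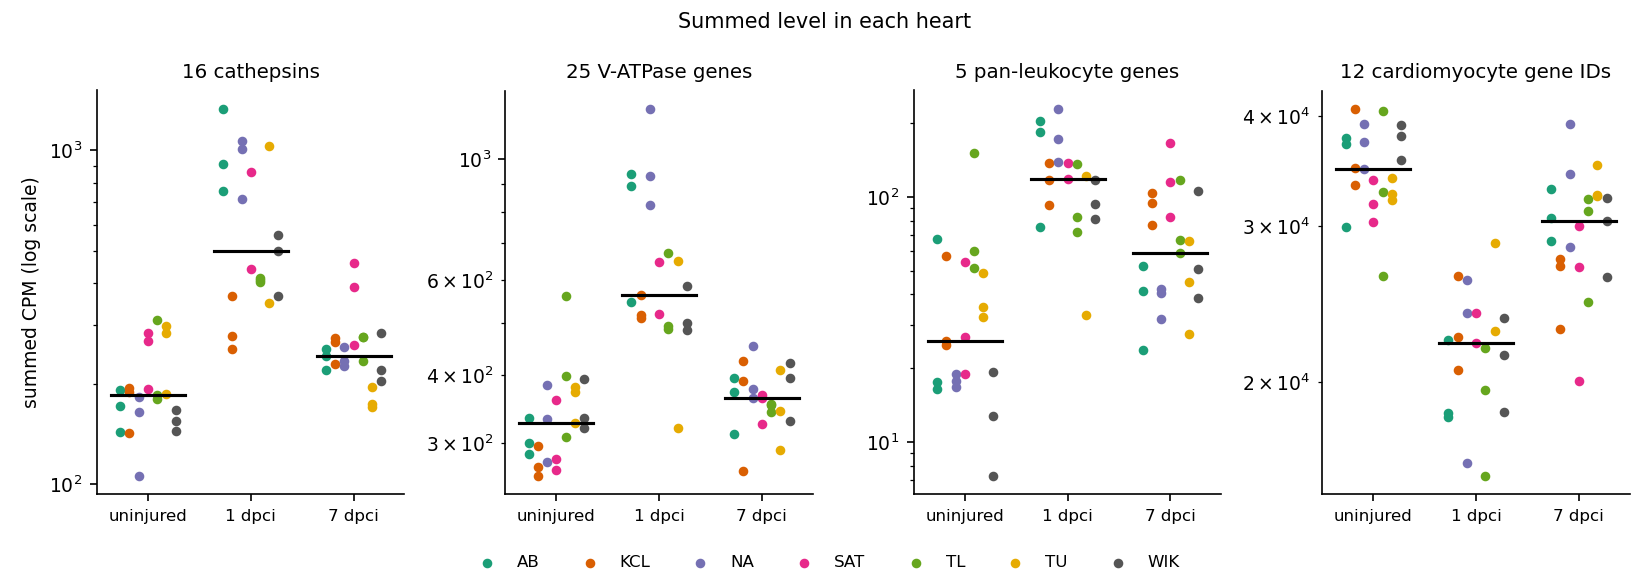
Summed level in each ventricle (y axis, CPM on a log scale) of the 16 cathepsins, the 25 V-ATPase genes, 5 pan-leukocyte genes and 12 cardiomyocyte gene IDs, by stage on the x axis, with 1 colour per strain and a black line at the median. The medians of the first 3 sums are highest and that of the cardiomyocyte sum is lowest at 1 dpci, and the lowest leukocyte sum at 1 dpci, 32.9 CPM, is that of TU replicate 54.

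A normalization with an estimated factor of unwanted variation removed most of these calls. The study used RUVg without stating the number of factors, and 1 factor was chosen here, so the fit need not match that of the study. With 1 RUVg factor in DESeq2, 2 cathepsins and no V-ATPase gene passed at 1 dpci, and 103 of all 16890 genes did. The estimated factor itself followed the stage, with values from -0.0421 to 0.279 at 1 dpci and from -0.196 to 0.0166 in uninjured ventricles, and 76.7% of its variance lay between the 3 stages.

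Of 71 further lysosome genes, 55 were measured. At 1 dpci 27 of them were higher, none was lower and 28 did not pass, beside 16.2% of all genes that were higher, and their median log2 fold change was 0.82. The asparaginyl endopeptidase lgmn, which processes cathepsins, averaged 229 CPM at 1 dpci and 53.4 CPM in uninjured ventricles (log2 fold change 2.01 ± 0.17, adjusted p = 3.2e-14 by edgeR). The a3 subunit gene of the V-ATPase, tcirg1b, averaged 27 CPM at 1 dpci and 4.95 CPM in uninjured ventricles (2.42 ± 0.21, adjusted p = 1.52e-13), the granulin gene grna 32.9 CPM at 1 dpci and 5.6 CPM before injury (2.79 ± 0.24, adjusted p = 3.75e-14) and the lysosomal membrane gene cd63 209 CPM at 1 dpci and 69.2 CPM before injury (1.62 ± 0.11, adjusted p = 2.74e-17). The abundant membrane gene lamp2 averaged 37.8 CPM at 1 dpci and 36.5 CPM before injury (0.01 ± 0.09), and tfeb, a transcription factor of lysosomal genes, 14.4 CPM at 1 dpci and 18 CPM before injury (-0.25 ± 0.11, adjusted p = 0.0727). Of 6 measured inhibitors of cathepsins and other proteases, serpinb1l1 (1.73 ± 0.26) and cst14a.2 (0.54 ± 0.11) were higher and the cystatin cst3 was lower (-0.47 ± 0.09).

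From 1 to 7 dpci most of these changes went back. At 7 dpci, 8 cathepsins were lower than at 1 dpci and none higher, and 15 V-ATPase genes were lower and 2 higher, beside 22.9% of all genes that passed by the same edgeR test (10.5% higher, 12.4% lower). The median log2 fold change was -0.86 for the cathepsins, -0.62 for the V-ATPase genes and -0.01 for all genes tested. Apart from the scarce ctsl.1, the largest falls among the cathepsins were those of ctss2.1 (-2.70 ± 0.24, adjusted p = 7.58e-13), ctsba (-2.24 ± 0.32, adjusted p = 2.7e-07) and ctsz (-2.11 ± 0.16, adjusted p = 1.13e-15). The 8 cathepsins include the scarce ctsl.1 (-3.34 ± 0.72), which may be a member only through its 1 dpci level, so its fall is no support. Among the V-ATPase genes atp6v1ab (-2.20 ± 0.25), atp6v1e1b (-1.34 ± 0.16), atp6v1aa (-1.30 ± 0.15) and atp6v0ca (-1.28 ± 0.12) fell most, with adjusted p between 1.91e-12 and 3.14e-09. The 2 genes that had been lower at 1 dpci, atp6v0cb (0.43 ± 0.12, adjusted p = 0.00752) and atp6v1b2 (0.87 ± 0.25, adjusted p = 0.00805), were higher at 7 dpci. The call of atp6v1b2 was lost without WIK replicate 61 at 7 dpci. The values at 1 dpci enter both comparisons. ctsa, ctsf, ctsk and ctss2.2, which had passed at 1 dpci, did not pass between 1 and 7 dpci.

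At 7 dpci 6 cathepsins were still higher than in uninjured ventricles and none was lower, beside 6.16% of all genes that passed, 4.46% being higher. Only 1 V-ATPase gene passed. The 6 are ctss2.1 (1.19 ± 0.32, adjusted p = 0.0133), ctsk (0.90 ± 0.18, adjusted p = 0.000296), ctsz (0.70 ± 0.18, adjusted p = 0.00796), ctsa (0.47 ± 0.14, adjusted p = 0.0315), ctsd (0.41 ± 0.12, adjusted p = 0.0275) and ctsla (0.35 ± 0.10, adjusted p = 0.0275), all by edgeR. ctsk, known best from bone-resorbing osteoclasts, had 1.43, 5.14 and 25.4 CPM in uninjured ventricles, 5.20, 12.3 and 28.03 CPM at 1 dpci and 2.67, 10.8 and 36.7 CPM at 7 dpci. Its level at 7 dpci was thus about that at 1 dpci (log2 fold change 7 over 1 dpci -0.16 ± 0.16), and all ranges overlapped. Without the 6 libraries whose labels conflict, ctsa, ctsd and ctss2.1 did not pass, which left 3, and ctsa was also lost in 9 of 61 fits that left out 1 library. Without NA replicate 33 at 7 dpci, 4 cathepsins passed. The V-ATPase gene was atp6v1c1b (0.97 ± 0.23, adjusted p = 0.00356). The scarce atp6ap1lb (1.22), atp6ap1a (0.70) and atp6v1f (0.46) had larger fitted log2 changes than most members but did not pass (adjusted p from 0.334 to 0.533 by edgeR). ctsll (-0.88 ± 1750) and ctss1 (0.84 ± 2530) held no count in whole groups of strain and stage, so the test could not decide on them.

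At 7 dpci 7 of 8 fibroblast and epicardium markers were higher than in uninjured ventricles, with a summed level of 234.1 to 1295 CPM (median 583.1) against 105.5 to 257.2 CPM (median 158.9). Of 12 cardiomyocyte gene IDs 4 were lower and none higher, with a summed level of 20032 to 39184 CPM (median 30422) against 26385 to 40780 CPM (median 34855). Of 13 macrophage genes 7 were higher and none lower, and of 5 pan-leukocyte genes 3 were higher. The part of these cells in the cathepsin levels at 7 dpci was not tested. Of the 55 further lysosome genes measured, 8 were higher at 7 dpci than in uninjured ventricles and 1, tfeb, was lower. All these counts stand beside 6.16% of all genes that passed, 4.46% being higher.

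The fitted direction of the early change was shared by the strains for most members above 1 CPM. Of the 11 cathepsins that averaged at least 1 CPM, 8 had a higher fitted level at 1 dpci in each of the 7 strains, NA and TU with their doubtful names included, and of the 21 such V-ATPase genes 13 had a higher level in each and atp6v0cb a lower one. How many of all genes share 1 direction in the 7 strains was not counted, so these counts are a description. Summed levels at 1 dpci, which are not sizes of change, differed between strains. At 1 dpci the 3 AB ventricles had summed cathepsin levels of 753.6, 912.3 and 1332 CPM and the 3 NA ventricles of 716.9, 1008 and 1068 CPM, while the 3 KCL ventricles had 254.1, 277.7 and 365.4 CPM and the 3 TL ventricles 404.8, 409.7 and 413.9 CPM. KCL thus lay below the lowest of AB, NA and TL, but it was not set apart from all strains. TU replicate 54 had 349.4 CPM, within the KCL range, and WIK replicate 57 had 366.96 CPM. The doubt about the names NA and TU applies here as well. These sums include ctsba, which had 3468, 1223 and 2122 counts in the AB ventricles at 1 dpci and 5, 6 and 8 in the TL ones. Sums without ctsba were not compared. Per strain, the number of cathepsins that passed at 1 dpci was 7 in AB (6.10% of all genes passed), 2 in KCL (5.57%), 4 in SAT (2.94%), 4 in TL (1.89%) and 6 in WIK (6.23%), and that of V-ATPase genes was 13, 8, 4, 0 and 5 in the same strains. All of these were higher at 1 dpci except atp6v1b2 in WIK. In TL, where no V-ATPase gene passed by edgeR, 10 had an unadjusted p below 0.05, and the share of all genes at that limit was not counted.

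The test of whether the stage changes differ between the 5 strains was passed by none of the 16 cathepsins and none of the 25 V-ATPase genes, beside 0.189% of all genes. At an unadjusted p below 0.05 there were 4 cathepsins and 4 V-ATPase genes, without a count of all genes at that limit, and DESeq2 called 2 cathepsins. The smallest p belonged to ctsd (unadjusted 0.00114, adjusted p = 0.186 by edgeR), ctsz (unadjusted 0.00157, adjusted 0.222) and ctsc (unadjusted 0.0239, adjusted 0.536) and, among the V-ATPase genes, to atp6v1aa (adjusted p = 0.437), atp6v0ca (adjusted p = 0.513) and atp6v0d1 (adjusted p = 0.532). With NA and TU included, 5 cathepsins and 2 V-ATPase genes passed. The share of all genes that pass this wider test was not counted, and the doubt about the names NA and TU applies to it.

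The 2 TU ventricles at 1 dpci differed widely. Replicate 48 had 435.2 CPM of ctsba, 57.8 CPM of ctss2.1, 56.2 CPM of ctsz and 37.6 CPM of atp6v1e1b, and replicate 54 had 102.5, 11.6, 13.02 and 4.34 CPM of the same genes. Their pan-leukocyte sums were 121.3 and 32.9 CPM and their macrophage sums 305.5 and 53.5 CPM. Over all genes the first lay nearest to NA and the second to TU at 7 dpci, and without replicate 48 there were 10 cathepsins in place of 12 that passed at 1 dpci.

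Levels differed among the 7 strains within a stage for 4, 6 and 6 cathepsins in uninjured, 1 dpci and 7 dpci ventricles, beside 13.1%, 11.4% and 13.5% of all genes (edgeR quasi-likelihood F-test over 7 strains). For the V-ATPase genes the numbers were 3, 7 and 3 of 25, close to the share of all genes in the uninjured and 7 dpci ventricles. They moved with single libraries, being 1 without KCL replicate 1 or TL replicate 2 in uninjured ventricles, 4 without NA replicate 28 at 1 dpci and 0 without NA replicate 33 at 7 dpci, and 0 in uninjured ventricles with a replicate block. Over the 5 strains alone, 2, 1 and 0 V-ATPase genes differed at the 3 stages. In uninjured ventricles they were ctsba, ctsk, ctsc and ctsf, and atp6v0ca, atp6v0d1 and atp6v1e1a (adjusted p from 2.5e-05 to 0.0402). At 1 dpci they were ctsba, ctsz, ctsd, ctsa, ctsk and ctsf, and atp6v1b2, atp6v1e1b, atp6v0ca, atp6v1ba, atp6v1d, atp6v0e1 and atp6v1aa. At 7 dpci they were ctsba, ctsk, ctsf, ctsll, ctsh and ctsc, and atp6v1d, atp6v0d1 and atp6v1b2. ctsba, ctsk and ctsf passed at each stage, and no V-ATPase gene did.

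Compared with the mean of the other 6 strains over all stages, 8 of 16 cathepsins and 5 of 25 V-ATPase genes passed in at least 1 of the 5 strains, beside 35.7% of all genes. The V-ATPase count thus lies below the share of all genes. By strain, the members that passed, of 41, were 3 in AB (6.28% of all genes), 6 in KCL (9.66%), 1 in SAT (9.52%), 5 in TL (13.4%) and 5 in WIK (12.8%). With both groups pooled, these counts lie around the shares of all genes, with KCL above and SAT below. All 5 in TL, all 3 in AB and the 1 in SAT were cathepsins, while KCL and WIK had members of both groups. Set against the 16 cathepsins alone, the counts in TL and AB lie above the shares of all genes. The calls that follow describe single genes and are not read as a trait of the members. The outstanding case was ctsba in TL. The 9 TL ventricles held 0, 2 and 0 counts of ctsba when uninjured (0 to 0.573 CPM), 5, 6 and 8 counts at 1 dpci (0.742 to 1.298 CPM) and 0, 1 and 0 counts at 7 dpci (0 to 0.296 CPM). Every one of the 52 ventricles of the other strains had more, the lowest being a KCL ventricle with 1.53 CPM. The log2 fold change of TL over the other strains was -7.46 ± 0.58 (adjusted p = 1.45e-14 by edgeR). The TL level was so low that its own change at 1 dpci (2.39 ± 1.55) could not be told from 0, while ctsd, ctsla, ctss2.1 and ctsz (1.63 ± 0.41, adjusted p = 0.0198) passed in TL.

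ctsba lies on chromosome 17 (GRCz11, 32622931 to 32631514). It was higher in AB (1.95 ± 0.28, adjusted p = 1.16e-06) and in SAT (2.06 ± 0.28, adjusted p = 4.09e-07) than in the mean of the other 6 strains, a mean that contains the very low TL. AB ventricles had 23.5, 29.6 and 42.5 CPM when uninjured, 237.7, 433.0 and 626.2 CPM at 1 dpci and 27.4, 46.7 and 50.3 CPM at 7 dpci. The KCL ventricles were spread within each stage, with 1.53, 16.7 and 21.5 CPM when uninjured, 8.97, 9.02 and 57.2 CPM at 1 dpci and 1.98, 37.9 and 38.1 CPM at 7 dpci. In KCL the ranges of the stages overlapped, although the 1 dpci ventricle with 57.2 CPM stood above every other KCL ventricle. No change was detected in KCL at 1 dpci (0.89 ± 0.68, adjusted p = 0.516), whereas in AB every 1 dpci ventricle stood above every other AB ventricle. The second cathepsin B gene, ctsbb on chromosome 20, had no count in 43 of 61 libraries and at most 1.15 CPM in any.

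**Figure D5:**
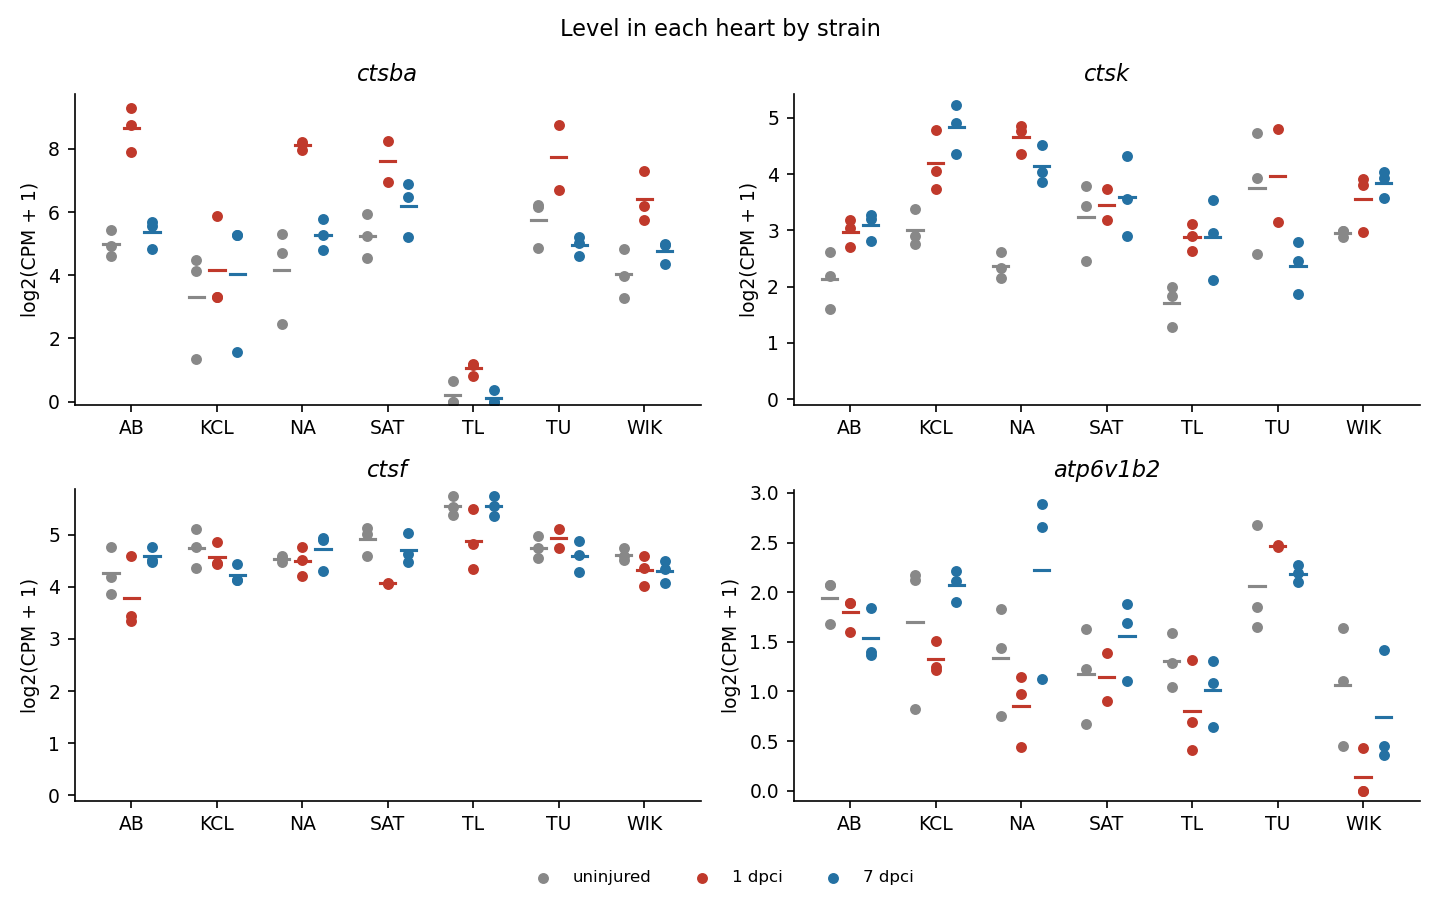
Level of ctsba, ctsk, ctsf and atp6v1b2 in each ventricle, as log2(CPM + 1) on the y axis, by strain on the x axis and by stage in colour, with a short line at the mean of each group. ctsba is close to 0 in all 9 TL ventricles, ctsf is highest in TL before injury and at 7 dpci, and atp6v1b2 is lowest in WIK at 1 dpci.

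TL differed in 4 more cathepsins. ctsf was higher in TL (0.86 ± 0.11, adjusted p = 2.88e-08), with 40.7, 45.03 and 52.4 CPM in uninjured TL ventricles against 13.6 to 34.03 CPM in uninjured ventricles of the other strains, so that these did not overlap. At 1 dpci the TL ventricles and those of the other strains did overlap. The share of all genes with such a separation was not counted. ctsk was lower in TL (-1.12 ± 0.22, adjusted p = 0.000156), and ctsc (0.54 ± 0.17, adjusted p = 0.0251) and the scarce ctsll (1.42 ± 0.39, adjusted p = 0.00988) were higher. The calls of ctsc and ctsll did not hold under all settings, as 3 and 2 of 8 lost them.

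In AB, ctsk (-0.79 ± 0.21, adjusted p = 0.0131) and ctsf (-0.46 ± 0.12, adjusted p = 0.0142) were lower. In KCL, ctsk was higher (0.88 ± 0.18, adjusted p = 0.000593) and ctsa (-0.63 ± 0.17, adjusted p = 0.0118) and ctsd (-0.71 ± 0.15, adjusted p = 0.000646) were lower. KCL ventricles at 7 dpci held 19.5, 28.9 and 36.7 CPM of ctsk, against 2.67 to 21.95 CPM in the other strains at that stage, so that only the lowest KCL ventricle fell within their range. The V-ATPase genes that were lower in KCL were atp6v0ca (-0.57 ± 0.14, adjusted p = 0.00431), atp6v1e1b (-0.80 ± 0.20, adjusted p = 0.00673) and the scarce atp6ap1a (-2.34 ± 0.78, adjusted p = 0.0463), whose call was lost in 8 of 9 fits that left out 1 KCL library. In uninjured KCL ventricles atp6v0ca had 35.6, 40.1 and 41.97 CPM, below every uninjured ventricle of the other strains, whose lowest value was 46.7 CPM. This separation did not hold at 1 or 7 dpci, and the share of all genes that show it was not counted. In WIK, ctsa (-0.60 ± 0.17, adjusted p = 0.0132), ctss2.1 (-1.21 ± 0.41, adjusted p = 0.0392), atp6v1e1a (-0.42 ± 0.12, adjusted p = 0.0103) and atp6v1b2 (-1.89 ± 0.36, adjusted p = 0.000118) were lower and atp6ap1a was higher (1.43 ± 0.47, adjusted p = 0.0333). atp6v1b2 had 0, 0 and 0.344 CPM in the 3 WIK ventricles at 1 dpci, against 0.364, 1.15 and 2.12 CPM in uninjured WIK ventricles, a log2 fold change within WIK of -2.96 ± 0.92 (adjusted p = 0.04 by edgeR). In no other of the 5 strains did it pass. Leaving out 1 library of the strain in turn lost the calls of ctss2.1 (5 of 9 fits), atp6ap1a (3), ctsa (2) and atp6v1e1a (1) in WIK, of ctsf (3) and ctsk (1) in AB and of ctsc (3) and ctsll (1) in TL. Those of ctsba in TL, AB and SAT, of ctsf and ctsk in TL, of ctsk in KCL and of atp6v1b2 in WIK held in every such fit. For ctsba in AB and SAT, TL stayed among the other strains in each fit, so these fits cannot show how far those calls depend on TL.

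NA and SAT were compared at 7 dpci because the study sets these 2 strains against each other. At an adjusted p of 0.1 and more than 1.5-fold change, 2 of 25 V-ATPase genes and no cathepsin passed, beside 5.58% of all genes (3.58% higher in NA). The count is near that share, so it is no trait of the members. At an unadjusted p below 0.05 by edgeR there were 3 cathepsins, without a count of all genes at that limit, and DESeq2 called none. atp6v0d1, which joins the rotor to the V0 ring, had 34.3, 45.9 and 56.3 CPM in NA and 24.5, 24.6 and 28.4 CPM in SAT (log2 fold change 0.82 ± 0.25, adjusted p = 0.0436). atp6v1d, a part of the central rotor stalk, had 32.6, 36.8 and 44.96 CPM in NA and 20.98, 23.01 and 23.4 CPM in SAT (0.76 ± 0.26, adjusted p = 0.0908). The 3 ventricles of each strain did not overlap for either gene, but neither call held without NA replicate 33, without SAT replicate 38, without SAT replicate 39 or without the libraries with conflicting labels. The share of all genes without such overlap was not counted. The doubt about the name NA applies to this comparison.

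Within groups the members varied together from fish to fish. After the mean of each strain and stage had been subtracted from log2(CPM + 1), the median Pearson r over 61 libraries was 0.395 between the 11 cathepsins with at least 1 CPM, 0.204 between the 21 such V-ATPase genes and 0.209 between the 2 groups, while the median r of these cathepsins and of these V-ATPase genes with all 10184 genes of that level was 0.005 each. The values are descriptive, since all genes of a library share its depth and its wound. The pair of highest r was atp6v0ca with atp6v1ba (0.733), followed by atp6v1e1b with atp6v1ba (0.704) and ctss2.1 with ctss2.2 (0.695). ctsf had a median r of -0.268 with the other cathepsins.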

How the data were processed

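Each of 61 ventricles gave a QuantSeq 3' FWD library, which reads the 3' end of transcripts, so that counts do not grow with gene length. Per the labels and the study's methods, the authors made the counts with bcl2fastq 2.20.0, Trim Galore 0.6.4 and STAR 2.7.6a on GRCz11 with Ensembl 104, and deposited unnormalized counts of 32520 genes. The deposited log2 values of 16890 genes, from 1.829 to 4.462, look like a second logarithm taken after a variance stabilization. They were used for the choice of members. For 1 alternative they were back-transformed by raising 2 to each value, which gave 3.552 to 22.04. The study tested with DESeq2 after RUVg and does not state the number of factors.

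Counts of the 16890 genes that reached 1 CPM somewhere among the libraries were fitted with edgeR 4.0.16 (R 4.3.3, TMM, trended dispersion, quasi-likelihood, 21 means of strain and stage, 61 libraries). Stage contrasts average the 7 strains. CPM use TMM library sizes. Calls are at a Benjamini-Hochberg adjusted p below 0.05 over all these genes, and at 0.1 with more than 1.5-fold for NA against SAT. Standard errors were taken from the fold change and its F statistic. The fit was tested on simulated data with 200 changed genes. The labels do not say more of the fish than that they are separate samples, and p-values measure the spread between them.

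Members, lists and tests were chosen with earlier results of these data known. Values are given for the 4 largest changes of each group in each stage comparison, the 3 smallest p among strains at each stage and for the interaction, every member called in 1 strain or in NA against SAT, and the a and b pairs whose changes differ most, besides the genes that passed. Alternatives were DESeq2 1.42.0, 1 RUVg factor, DESeq2 size factors, no mitochondrial genes, no count filter, other sets of strains, no libraries with conflicting labels, limma 3.58.1 on the back-transformed deposited values, a 2-fold limit, a replicate block and each library left out. Figures used matplotlib 3.10.9, and permutations numpy 2.4.6 and pandas 2.3.3.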

Additional observations from a re-analysis of the deposited data

Results flagged for a closer look

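For the gene atp6v0d1 every 1 dpci ventricle of a strain lay above every uninjured one in KCL and SAT and below them in WIK. Its mean at 1 dpci minus its uninjured mean was 16.12 CPM in KCL, with 34.8, 34.9 and 36.01 CPM at 1 dpci and 14.6, 17.8 and 25.01 CPM when uninjured, and 13.95 CPM in SAT, with 34.4 and 48.1 CPM at 1 dpci and 23.1, 25.7 and 33.2 CPM when uninjured. In WIK the difference was -6.021 CPM, with 29.5, 30.6 and 32.03 CPM at 1 dpci and 33.5, 34.2 and 42.5 CPM when uninjured. Within the strains the change passed the edgeR test in KCL (adjusted p = 0.0291) and did not in SAT (adjusted p = 0.276) or WIK (log2 fold change -0.26, adjusted p = 0.639). The differences between pairs of strains were not tested, and the edgeR test over the 5 strains gave an adjusted p of 0.532. The gene was picked for this pattern, and the share of all genes that show it was not counted. With so few ventricles per group, such separation can arise by chance.

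The gene atp6v0a2a, which stayed below the limit of 1 CPM and so took no part in the comparisons, had 10 counts in the injured ventricles and 3 in the uninjured ones, with at most 4 in any library.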

How the results depend on the processing

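With 1 RUVg factor in DESeq2, 14 log2 fold changes reversed. At 1 dpci over uninjured they were -0.34 for atp6v0a2b, -0.14 for atp6v0b, 0.023 for atp6v0cb, -0.15 for atp6v0d1, -0.11 for atp6v1c1a, -0.34 for ctsa, 0.41 for ctsf, -0.091 for ctsh, -0.56 for ctsl.1 and -1.84 for ctss2.2, and at 7 over 1 dpci 0.11 for atp6ap2, -0.078 for atp6v0cb, 0.12 for atp6v0d1 and 0.057 for ctsh. It called 2, 2 and 1 cathepsins at 1 dpci over uninjured, 7 over 1 dpci and 7 dpci over uninjured, 0 and 0 V-ATPase genes in the first 2 of these, and 1 cathepsin in the interaction. Beside the factor's values by stage, the cause was not tested.

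DESeq2 called 2 cathepsins in the interaction and 2 V-ATPase genes at 7 dpci over uninjured. Without mitochondrial genes, 1 cathepsin passed in the interaction, and 1 cathepsin and 1 V-ATPase gene between NA and SAT. With no count filter, 8 cathepsins differed among strains before injury, 5 passed in the interaction and 4 between NA and SAT, and 3, 3 and 1 V-ATPase genes passed at 7 dpci over uninjured, in the interaction and between NA and SAT. With 5 strains in the contrasts and 7 in the interaction, 5 cathepsins and 2 V-ATPase genes passed the interaction, and 1 and 0 V-ATPase genes differed among strains at 1 and 7 dpci. That interaction includes the doubtful names NA and TU, and its share of all genes was not counted. Without the conflicting labels, 3 cathepsins passed at 7 dpci over uninjured and 0 V-ATPase genes between NA and SAT. With limma, 2 V-ATPase genes passed at 7 dpci over uninjured and 1 between NA and SAT. At more than 2-fold, 1 cathepsin passed at 7 dpci over uninjured and 4 in single strains, and 9, 8, 0, 2 and 0 V-ATPase genes passed at 1 dpci over uninjured, 7 over 1 dpci, 7 dpci over uninjured, in single strains and between NA and SAT. The causes were not tested.

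With a replicate block among the uninjured libraries, where several strains share replicate numbers, 0 V-ATPase genes differed among strains. The labels do not say that a number marks a shared litter or day, and the deviations of same-numbered uninjured libraries of different strains had a median r of 0.018, against 0.004 for other numbers.

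Leaving out 1 library at a time gave 10 to 12 cathepsins at 1 dpci over uninjured, 7 to 9 at 7 over 1 dpci, 4 to 7 at 7 dpci over uninjured, 3 to 5, 5 to 9 and 4 to 7 among strains at the 3 stages, 0 to 0 in the interaction, 7 to 10 in single strains and 0 to 1 between NA and SAT. It gave 17 to 19, 17 to 17 and 1 to 2 V-ATPase genes in the stage comparisons, 1 to 3, 4 to 10 and 0 to 3 among strains, 0 to 0 in the interaction, 4 to 7 in single strains and 0 to 2 between NA and SAT. Tests within a stage, the interaction and NA against SAT were refitted only without libraries of their own stage and strains, and for single strains only the strain that lost a library was refitted. Without NA replicate 33 at 7 dpci, 0 V-ATPase genes differed among strains at that stage. The 9 members that averaged under 1 CPM rest on few counts.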

Other observations

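Of the members' neighbours on the genome, atp6v1aa, ctsll and atp6v0a2b share a stretch of chromosome 5 (GRCz11, 24245682 to 24259992, 24305877 to 24309667 and 24543862 to 24567869). Their log2 fold changes at 1 dpci were 1.49, 0.23 and 0.64, of which the first and the last passed the edgeR test.

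The gene atp6v1c2, below the limit of 1 CPM, had 3 counts in all, which came from 1 ventricle at 1 dpci.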
